A study of Mus musculus with 5 samples.

Results

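The genes described here are 9 feedback inhibitors of mitogen-activated protein (MAP) kinase signalling: the MAP kinase phosphatases Dusp1, Dusp2, Dusp4, Dusp5, Dusp6 and Dusp10, and the Sprouty family genes Spry1, Spry2 and Spred1. They were taken by name, as every probe set whose single gene symbol is one of these, which gave 18 of the 34945 probe sets with 1 gene symbol and 9 of 18193 genes. Where a gene had several probe sets, the brightest on average across the 5 arrays represented it, and the others are given beside it. A signal is the linear intensity of a probe set relative to the median of its array, which is 1.

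RNA of CD3+CD4+ T cells of BALB/c background was hybridized to 5 Affymetrix mouse genome arrays. CXCR6 Hi cells (n = 2) and CXCR6 Lo cells (n = 2) came from the colonic lamina propria (LP) of Rag1-/- mice, which lack T and B cells of their own and developed colitis after transfer of CD45Rb Hi CD4+ T cells. The last array (n = 1) held CD45Rb Hi naive T cells, placed in the spleen of healthy BALB/c mice by the methods and by one label, while another of its labels names the LP. The recipients' genotype is shared by all 4 LP arrays, and the mice were young adults when first used. The LP cells were taken weeks after the transfer, and the sources differ on how many. Surface CXCR6 was stained with its ligand, CXCL16, fused to an antibody Fc. The labels call the LP arrays biological replicates and do not say how many mice gave each, so p-values reflect no more than the spread among these arrays, which may be technical.

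MAP kinases carry signals from the T cell receptor, costimulation, cytokines and stress to the nucleus. Dual specificity phosphatases switch ERK, JNK and p38 off by removing phosphate from both the threonine and the tyrosine of their activation loop, and many of their genes are themselves induced by the kinases they silence. Sprouty and SPRED proteins act further up, between receptors and Raf, and damp the Ras to ERK branch.

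Several features of the arrays move with the comparison of LP and naive cells. The ratio of 3' to 5' signal of Gapdh, which grows as RNA is degraded or amplified from less material, was 2.81 to 6.96 in LP and 1.51 in naive RNA, and the Dap control added as poly-A RNA was at 64.6 to 102 against 0.194. Xist, a female transcript, was at 181 to 215 in LP and at 0.864 in naive RNA, and the Y-linked Eif2s3y at 1.59 to 3.41 and 53.5. Preparation, sex of the cells, host mice, tissue and activation cannot be told apart in this comparison. Cxcr6 itself, the sorted gene, had signals of 184 and 225 on the CXCR6 Hi arrays, 58.1 and 25.3 on the CXCR6 Lo arrays and 10.5 on the naive array.

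Dusp4, a nuclear phosphatase induced by ERK, differed from naive cells by the largest amount among the main probe sets of the 6 phosphatases. Its signals were 48.1 and 30.3 on the CXCR6 Hi arrays, 19.1 and 13.4 on the CXCR6 Lo arrays and 1.59 on the naive array. All 4 LP arrays lay well above the naive array, and the CXCR6 Hi arrays lay above the CXCR6 Lo arrays. The mean of the subsets was higher than naive by 3.96 on the log2 scale (SE 0.42, 95% interval 2.76 to 5.16, limma adjusted p = 0.0146), a 15.6-fold difference. The separate differences were 4.59 for CXCR6 Hi (24.0-fold, limma adjusted p = 0.0171) and 3.33 for CXCR6 Lo (10.1-fold, limma adjusted p = 0.0225), and both share the 1 naive array.

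Dusp1, a nuclear phosphatase that prefers p38 and JNK and belongs to the immediate early genes, was also higher in LP cells. Its signals were 170 and 154 in CXCR6 Hi cells, 147 and 119 in CXCR6 Lo cells and 30.5 in naive cells. Each LP array was between 3.92 and 5.57 times the naive array. The LP mean was higher by 2.27 on the log2 scale (SE 0.27, 95% interval 1.49 to 3.05, limma adjusted p = 0.0161), a 4.81-fold difference.

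Dusp10, which acts on JNK and p38 more than on ERK, was higher by its main probe set, 1417164_at. That probe set read 14.9 and 20.9 in CXCR6 Hi cells, 23.0 and 18.7 in CXCR6 Lo cells and 3.86 in naive cells. The LP arrays lay above the naive array and the subsets overlapped. The LP mean was higher by 2.31 on the log2 scale (SE 0.33, 95% interval 1.36 to 3.26, limma adjusted p = 0.0202), a 4.96-fold difference. The other probe set of this gene read the opposite way and is described with the multiple probe sets below.

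Dusp6, the cytoplasmic phosphatase that is most selective for ERK, went the other way. Its signals were 2.68 and 3.5 in CXCR6 Hi cells, 2.31 and 1.83 in CXCR6 Lo cells and 13.9 in naive cells. Every LP array lay below the naive array. The LP mean was lower, at -2.47 on the log2 scale (SE 0.32, limma adjusted p = 0.0172), so that naive cells had 5.55 times the signal.

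Dusp2 and Dusp5, nuclear phosphatases of activated lymphocytes, did not pass the test against naive cells. Dusp2 read 13.9 and 13.5 in CXCR6 Hi cells, 14.1 and 17.1 in CXCR6 Lo cells and 9.90 in naive cells. The LP arrays were all above the naive array by less than 2-fold, and the difference was 0.56 on the log2 scale (SE 0.26, 95% interval -0.19 to 1.31, limma adjusted p = 0.181). Dusp5, whose product is selective for ERK, read 81.4 and 55.4 in CXCR6 Hi cells, 42.2 and 29.6 in CXCR6 Lo cells and 35.9 in naive cells. The naive array fell among the CXCR6 Lo arrays, and the difference of the LP mean was 0.44 on the log2 scale (SE 0.39, 95% interval -0.68 to 1.56, limma adjusted p = 0.429).

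Of the Sprouty family, Spry2 was far lower in LP cells. Its main probe set, 1436584_at, read 1.69 and 1.58 in CXCR6 Hi cells, 1.53 and 2.02 in CXCR6 Lo cells and 26.2 in naive cells. The LP arrays formed a narrow band in which the subsets overlapped. The LP mean was lower, at -3.95 on the log2 scale (SE 0.29, 95% interval -4.78 to -3.12, limma adjusted p = 0.0119), a 15.4-fold difference.

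Spry1, a second Sprouty gene, had low signals of 1.13 and 1.72 in CXCR6 Hi cells, 2.11 and 2.94 in CXCR6 Lo cells and 0.740 in naive cells. Every LP array was above the naive array, but the difference of 1.33 on the log2 scale (SE 0.40, limma adjusted p = 0.0762) did not pass. Spred1, which brings the Ras inhibitor neurofibromin to the membrane, read 6.3 and 8.39 in CXCR6 Hi cells, 8.01 and 11.3 in CXCR6 Lo cells and 18.7 in naive cells by its main probe set. All LP arrays were below the naive array, and the difference of -1.17 on the log2 scale (SE 0.35, limma adjusted p = 0.0790) did not pass.

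**Figure D1:**
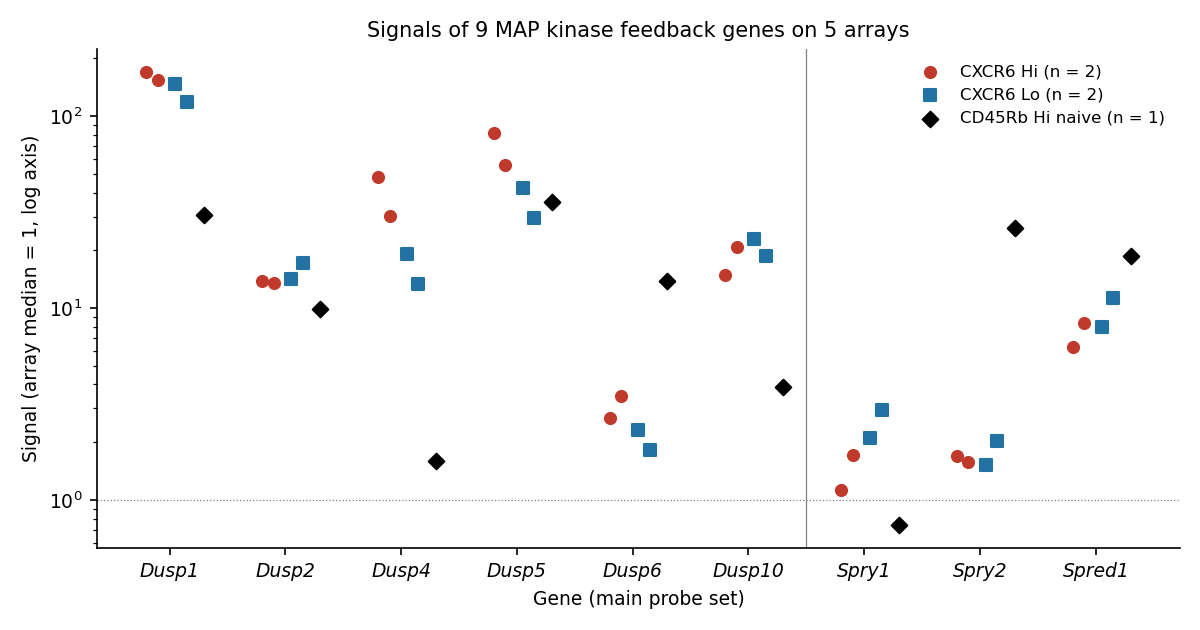
Signal of the main probe set of each of the 9 genes on each array, on a log axis (circles, CXCR6 Hi; squares, CXCR6 Lo; diamonds, naive). Dusp1 and Dusp4 lie above the naive array on all 4 LP arrays, and Dusp6 and Spry2 lie below it.

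In all, 3 of the 9 genes were higher in LP than in naive cells (Dusp1, Dusp4 and Dusp10), 2 were lower (Dusp6 and Spry2) and 4 did not pass. The call of Dusp10 is that of its main probe set, and its other probe set was called lower. With the mean of each gene's probe sets, 2 were higher (Dusp1 and Dusp4) and 3 lower (Dusp6, Spry2 and Spred1), and 25.1% of all genes passed. By main probe sets, 33.9% of all 18193 genes passed, 15.1% as higher and 18.8% as lower. The 5 of 9 thus stands over a high background. At an unadjusted p under 0.05 there were 7 of the 9 and 48.4% of all genes. By arrays alone, 5 of the 9 lay wholly above the naive array, against 35% of all genes, and 3 wholly below it, against 40.9%. The median difference of the 9 genes was 0.56 on the log2 scale and that of all genes -0.14. Against naive cells, CXCR6 Hi cells gave 3 higher and 2 lower calls (13.2% and 15.3% of all genes, 28.6% in all), and CXCR6 Lo cells gave 3 and 2 as well (12.8% and 16.7%, 29.5% in all). With 1 naive array, whose spread was assumed to equal that of the LP groups, leaving out either CXCR6 Lo array left 0 of the 9 and 0 of all genes past the limma threshold, although 6 of the 9 had an unadjusted p under 0.05. Leaving out CXCR6 Hi replicate 1 left 2 of the 9 and 9.72% of all genes, and leaving out CXCR6 Hi replicate 2 left 2 of the 9 and 10.7%.

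**Figure D2:**
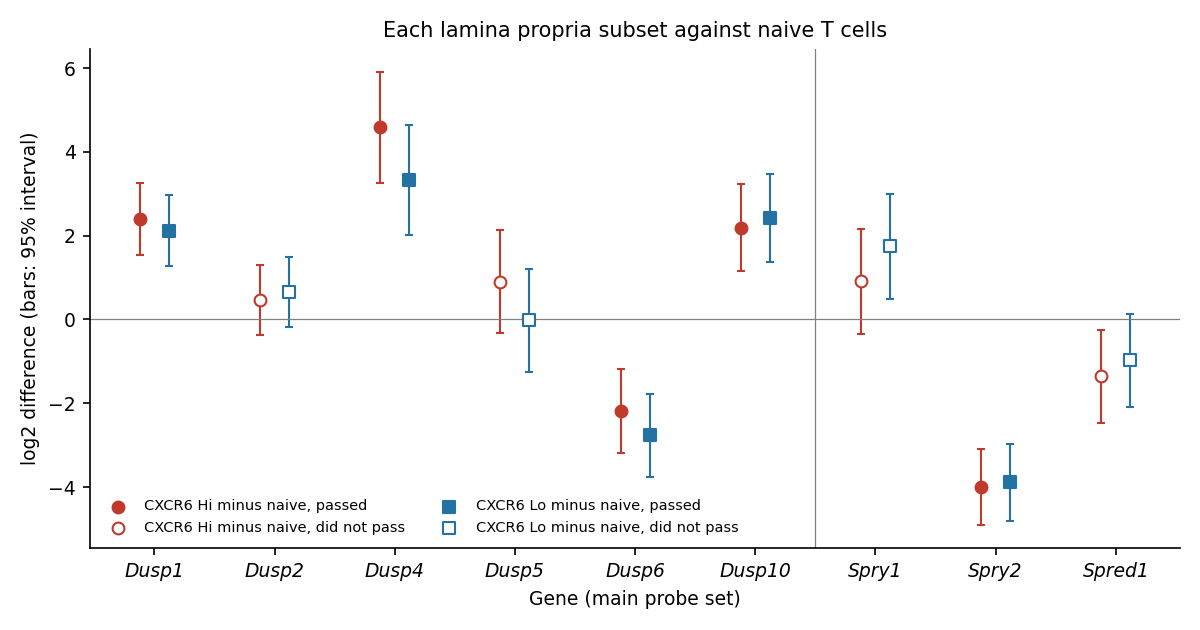
Difference of each LP subset from naive cells for the 9 genes on the log2 scale (circles, CXCR6 Hi; squares, CXCR6 Lo), with bars for the 95% interval of the limma fit and filled symbols for genes that passed. Dusp4 stands at 4.59 and 3.33, and Spry2 at -4.0 and -3.89.

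Promoter windows of RefSeq (assembly GRCm38.p6) were found for 8 of the 9 genes, all but Dusp4, and the 250 bases before each start were searched on both strands. The windows of 4 genes are shown 5' to 3' on the gene's strand. Dusp1 and Dusp5 carried the motifs marked below, and Dusp6 and Spry2 were lower in LP cells. The Dusp2 window also held a motif, given below, and is not shown. Capitals mark a cAMP response element (TGACGTCA) in Dusp1, at chr17:26508473-26508722 on the minus strand, and 2 adjoining CArG boxes, the site of serum response factor, in Dusp5, at chr19:53528895-53529144 on the plus strand. The windows of Dusp6, at chr10:99262981-99263230 on the plus strand, and Spry2, at chr14:105896820-105897069 on the minus strand, held none of the motifs searched.
Dusp1: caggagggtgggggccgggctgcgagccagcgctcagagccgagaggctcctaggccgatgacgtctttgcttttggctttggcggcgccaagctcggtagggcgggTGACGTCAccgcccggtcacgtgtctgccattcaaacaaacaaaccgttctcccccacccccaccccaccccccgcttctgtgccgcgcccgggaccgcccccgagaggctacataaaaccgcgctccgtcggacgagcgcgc
Dusp5: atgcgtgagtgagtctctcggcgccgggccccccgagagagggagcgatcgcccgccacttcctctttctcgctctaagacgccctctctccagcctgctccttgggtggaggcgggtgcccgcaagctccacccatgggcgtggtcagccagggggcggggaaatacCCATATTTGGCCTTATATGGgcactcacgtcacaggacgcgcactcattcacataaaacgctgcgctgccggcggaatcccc
Dusp6: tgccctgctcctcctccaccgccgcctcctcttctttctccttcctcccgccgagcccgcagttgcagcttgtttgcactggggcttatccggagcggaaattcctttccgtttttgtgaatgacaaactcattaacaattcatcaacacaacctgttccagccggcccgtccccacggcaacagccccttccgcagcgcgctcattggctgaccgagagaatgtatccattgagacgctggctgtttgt
Spry2: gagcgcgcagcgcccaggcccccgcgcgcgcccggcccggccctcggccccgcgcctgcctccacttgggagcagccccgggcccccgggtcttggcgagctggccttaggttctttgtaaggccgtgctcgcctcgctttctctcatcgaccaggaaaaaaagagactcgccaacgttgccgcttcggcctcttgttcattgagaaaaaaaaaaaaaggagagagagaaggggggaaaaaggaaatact

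The cAMP response element was in 1.55% of 32817 windows and the CArG box in 1.47%. An EGR site (GCGNGGGCG) was in the Dusp2 window and in 4.7% of all windows. The AP-1 site (TGANTCA, 6.75% of windows), the ETS site (CCGGAAG, 6.9%) and the NF-kB kB site (7.25%) were in 0 of the 8 windows. These matches describe the letters of the windows, and binding was not measured.

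Between the subsets, none of the 9 genes passed by limma, and 0 of 18193 genes did. At an unadjusted p under 0.05 there was 1 of the 9, Dusp4, and 6.55% of all genes. Dusp4 had geometric means of 38.1 in CXCR6 Hi and 16 in CXCR6 Lo cells, a difference of 1.26 on the log2 scale (SE 0.37, 95% interval 0.18 to 2.33, limma adjusted p = 0.708) or 2.39-fold. Without CXCR6 Hi replicate 1 this was 0.92 and without CXCR6 Lo replicate 2 it was 1.00.

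Dusp5 had the next difference in that direction, with geometric means of 67.2 and 35.3, or 0.93 on the log2 scale (SE 0.35, 95% interval -0.07 to 1.93, limma adjusted p = 0.761). Dusp6 followed with 0.58 (95% interval -0.24 to 1.39) and Dusp1 with 0.29 (95% interval -0.41 to 0.99). In these 4 phosphatases both CXCR6 Hi arrays lay above both CXCR6 Lo arrays, as in 25.1% of all genes.

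Spry1 and Dusp2 had the reverse order, with both CXCR6 Hi arrays below both CXCR6 Lo arrays, as in 14.3% of all genes. Their differences were -0.84 on the log2 scale (SE 0.36, 95% interval -1.86 to 0.18, limma adjusted p = 0.761) and -0.18 (95% interval -0.86 to 0.49). In the main probe sets of Dusp10, Spry2 and Spred1 the subsets overlapped, with intervals of -1.08 to 0.62, -0.85 to 0.64 and -1.30 to 0.52. In the other Dusp10 probe set, 1417163_at, both CXCR6 Hi arrays lay below both CXCR6 Lo arrays (-0.82, 95% interval -1.56 to -0.08, limma adjusted p = 0.742 over all probe sets). The dim Spry2 probe set 1421656_at did so too, at -0.22. Spred1 probe sets 1452911_at and 1428777_at, dim in LP cells, had the reverse order, at 0.48 and 0.42. None of these passed.

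The 3' to 5' ratio of Gapdh was 2.81 and 3.98 on the CXCR6 Hi arrays and 4.19 and 6.96 on the CXCR6 Lo arrays. Ordered by this ratio, the LP arrays run exactly opposite to their order by Dusp1, Dusp4 and Dusp5 signal and in the same order as by Spry1 signal. The part of RNA quality in these differences was not tested. Replicates also differed within a subset, replicate 1 reading above replicate 2 for Dusp1, Dusp4 and Dusp5 in both. Spry1 and the main probe set of Spred1 read lower on replicate 1 in both subsets. The heat shock gene Hspa1a was split by replicate as the 3 phosphatases were, with 215 and 71.3 in CXCR6 Hi cells and 276 and 96.2 in CXCR6 Lo cells. Unlike them, it read higher in CXCR6 Lo cells at each replicate number. Most other heat shock genes listed were split by replicate alike. Hspa8 (389 and 442) and Hspa5 (316 and 351) were not in CXCR6 Hi cells. Summed epithelial markers were split as Spry1 and Spred1 were, with 52.3 and 99.1 in CXCR6 Hi cells and 53.5 and 119 in CXCR6 Lo cells. The part of heat shock and epithelial signal in the spread of these members was not tested.

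Of the 9 genes, 3 had more than 1 probe set. The other probe set of Dusp10, 1417163_at, read 1.39 and 1.15 in CXCR6 Hi cells, 2.37 and 2.09 in CXCR6 Lo cells and 26.2 in naive cells, lower in LP at -3.97 on the log2 scale (SE 0.29, limma adjusted p = 0.0150 over all probe sets). The 2 probe sets thus gave opposite calls, each larger than the spread between arrays, and with the mean of both the LP difference was -0.83. Of 9010 genes with several probe sets, 5.21% had a pair at least 2 log2 units away from 0 in opposite directions. Among genes with probe sets of mean signal of at least 1, the share was 2.83%. The direction of Dusp10 therefore depends on the probe set.

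The second Spry2 probe set, 1421656_at, was dim on all arrays (0.290 to 0.364 in LP, 0.306 in naive cells), with a difference of 0.11 (limma adjusted p = 0.766). With the mean of both probe sets, Spry2 was still lower but at -1.92 on the log2 scale. Spred1 had 8 probe sets. Including the main one, 7 were below the naive array in their mean, and 3 of these passed as lower. They were 1460116_s_at, with LP signals of 0.383 to 0.550 against 11.2 (-4.69 on the log2 scale, limma adjusted p = 0.0150), 1452911_at at -4.0 (limma adjusted p = 0.0152) and 1428777_at at -2.59 (limma adjusted p = 0.0163). The remaining one, 1445228_at, was higher by 3.47 (limma adjusted p = 0.0199) at signals under 1 on every array.

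**Figure D3:**
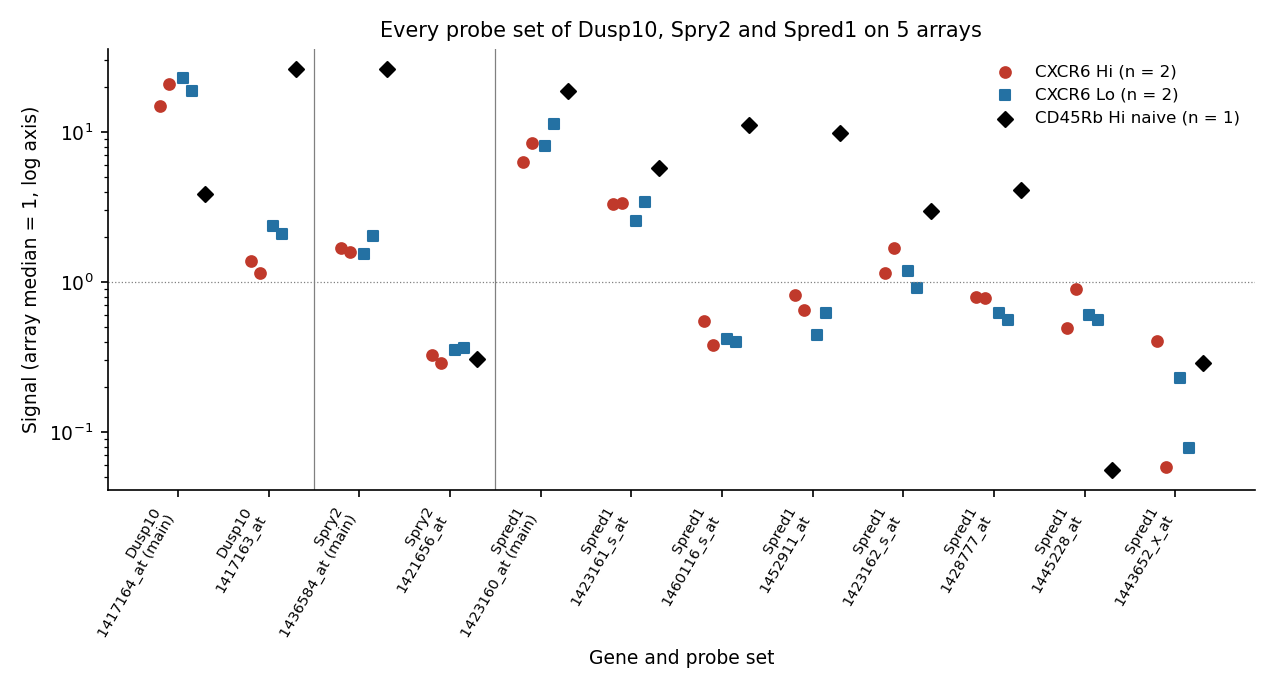
Signals of the probe sets of Dusp10, Spry2 and Spred1 on the 5 arrays, on a log axis (circles, CXCR6 Hi; squares, CXCR6 Lo; diamonds, naive). The 2 Dusp10 probe sets cross, from 3.86 and 26.2 on the naive array to 14.9 to 23.0 and 1.15 to 2.37 on the LP arrays.

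The other dual specificity phosphatases were measured as 15 genes, of which 4 were higher, 2 lower and 9 did not pass, with a median difference of -0.50 against -0.14 over all genes. Dusp7, a cytoplasmic ERK phosphatase close to Dusp6, read 0.664 to 0.788 in LP and 19.5 in naive cells (-4.75 on the log2 scale, SE 0.25, limma adjusted p = 0.0119), with another of its probe sets at 1.08. Dusp8, a JNK and p38 phosphatase, read 4.04 to 14.4 in LP and 0.618 in naive cells (3.40, SE 0.74, limma adjusted p = 0.0406), with another of its probe sets at -0.44. Dusp14 was higher by 2.25 (limma adjusted p = 0.0188), and Dusp12 was lower at -1.78 (limma adjusted p = 0.0298) with a dim probe set that read 2.81 higher. Of the other Sprouty and SPRED genes, 0 of 4 passed, and the largest differences were 1.21 for Spry3 and -0.80 for Spred3, both at signals under 1.

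Among the other inhibitors of Ras and ERK, 1 of 11 was higher and 3 were lower. Rasal1, a Ras GTPase activating protein, was lower at -3.81 on the log2 scale (limma adjusted p = 0.0201), as was Dab2ip at -2.39 (limma adjusted p = 0.0254) and the adaptor Dok2 at -1.41 (limma adjusted p = 0.0268). The other probe set of Dab2ip stood at 0.53. Errfi1, an inhibitor of the EGF receptor, was higher by 1.32 (limma adjusted p = 0.0475).

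In the Ras to ERK cascade itself, 1 of 11 genes was higher and 2 were lower. The kinase Braf was higher by 2.85 (limma adjusted p = 0.0132), although 4 of its 8 other probe sets went the other way by at least 1 log2 unit. The Ras exchange factor Sos1 was lower at -2.07 (limma adjusted p = 0.0159), with another of its probe sets at 1.52. The ERK-activated kinase Rps6ka3 was lower at -1.56 (limma adjusted p = 0.0229), with another at 1.54.

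The JNK and p38 cascades had 18 genes, of which 3 were higher and 7 lower. Gadd45b, an activator of MAP kinase kinase kinases, read 127 and 114 in CXCR6 Hi cells, 103 and 70.4 in CXCR6 Lo cells and 7.55 in naive cells, higher in LP by 3.74 (SE 0.33, limma adjusted p = 0.0126), with another of its probe sets at -1.61. Its relative Gadd45a was lower at -3.32 (limma adjusted p = 0.0171), as were the p38 activator Map2k6 at -3.38 (limma adjusted p = 0.0177) and the p38 kinase Mapk12 at -3.31 (limma adjusted p = 0.0377). Mapk12 was dim in LP cells (0.042 to 0.673), and its other probe set stood at 0.01.

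The list of ERK response genes, which also holds the transcription factors Elk1 and Srf that act downstream of ERK, numbered 17. Of these, 7 were higher and 4 lower, with a median of 0.98. Fosl2, an AP-1 subunit, read 112 to 136 in LP and 10.2 in naive cells (3.59, SE 0.24, limma adjusted p = 0.0119), and the immediate early gene Ier2 was higher by 2.67 (limma adjusted p = 0.0182). The ETS factors Elk1 and Etv5 were lower at -4.07 (limma adjusted p = 0.0413) and -2.71 (limma adjusted p = 0.0125), each with another probe set that went the opposite way. Both were dim in LP cells, at 0.231 to 0.818 for Elk1 and 0.556 to 0.662 for Etv5. Between the subsets 0 genes passed in any of these lists.

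**Figure D4:**
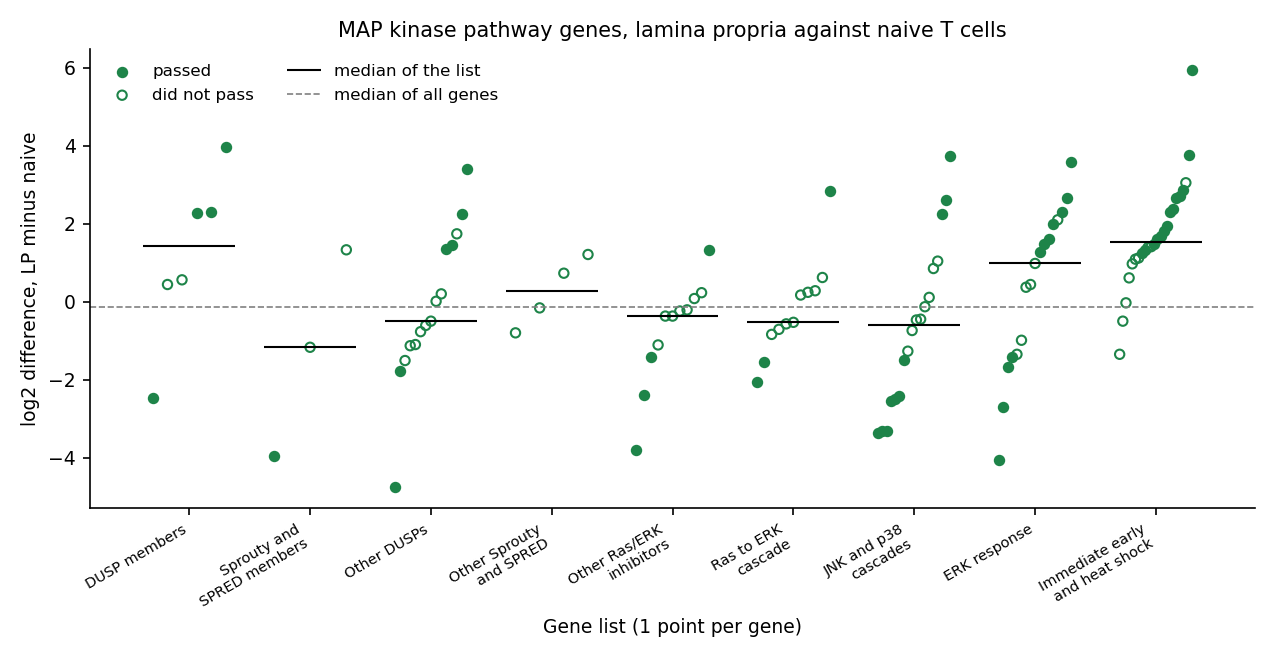
Differences of LP minus naive on the log2 scale for the genes of each list, 1 point per gene, filled where the gene passed the test. Solid lines are list medians and the dashed line is the median of all genes. The median is 0.98 for ERK response genes, -0.50 for other dual specificity phosphatases and -0.14 for all genes.

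Genes of the immediate early and heat shock responses, which tissue digestion can induce and among which Dusp1 is often counted, read mostly higher on the LP arrays. Of 24 such genes, 14 were higher, 0 lower and 10 did not pass, with a median of 1.54. Of all genes, 15.1% were called higher. Egr1 (19.5 to 32.4 in LP, 66.1 in naive cells) and Zfp36 (14.5 to 18 and 23.8) read lower in LP and did not pass. Hspa1a, a heat shock chaperone, read 71.3 to 276 in LP and 2.31 in naive cells (5.94, SE 0.94, limma adjusted p = 0.0233), the orphan receptor Nr4a1 was higher by 3.76 (limma adjusted p = 0.0144), Junb by 2.86 (limma adjusted p = 0.0246) and Atf3 by 2.72 (limma adjusted p = 0.0157). The colon was digested with enzymes at warm temperature and the spleen was disrupted mechanically. The part of dissociation in the Dusp1, Dusp4 and Dusp10 differences was not tested.

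The labelled cell type was checked against its markers. T cell genes were well measured, Cd3e reading 23.2 to 25.1 in LP and 86.1 in naive cells, Cd3d 45.4 to 68.5 and 125, and Ptprc, the pan-leukocyte CD45, 265 to 315 and 119. Of 10 T cell genes 1 was higher (Ptprc) and 2 lower (Cd3e and Cd3d). Cd4, given here because the cells were sorted on it, read 22.9 to 39.2 and 56.0 and did not pass. Of 6 naive T cell genes 1 was higher in LP, opposite to the name of the list (Il7r, 308 to 369 against 125). Its product, CD127, was also a marker of effector-memory LP cells in the paper. Another was lower (Lef1, 8.80 to 15 against 99.8), and 4 did not pass. Of these 4, Klf2 (52.3 to 72.4 against 31.5) and Satb1 (157 to 190 against 99.9) read higher on every LP array, and Ccr7 and S1pr1 lower. Of 9 effector genes 7 were higher, among them Il17a (18.1 to 30.7 against 0.510), and 0 lower. Tbx21, an effector gene that did not pass, read 6.72 to 14.5 in LP and 20.8 in naive cells. By subset against naive cells, 7 effector genes were higher and 0 lower in CXCR6 Hi cells, where 28.6% of all genes passed. In CXCR6 Lo cells 3 were higher and 1 lower, where 29.5% of all genes passed. Both counts share the 1 naive array, and 0 of the 9 effector genes passed between the subsets.

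Markers of other cells also differed. Of 15 epithelial genes 4 were higher and 1 lower, with summed signals of 52.3 to 119 in LP and 108 in naive cells, and 11 of the 15 were under 1 on the naive array. Car1, a carbonic anhydrase, made up 85.2 of the naive sum, and without it the sums were 43.8 to 102 in LP and 22.9 in naive cells. Of 14 fibroblast and smooth muscle genes 7 were higher and 1 lower (223 to 337 against 93.5). Thy1, which T cells also express, made up 72.5 of the naive sum, and without it the sums were 107 to 170 in LP and 20.9 in naive cells. Both genes were singled out after their values were seen. Of 13 macrophage and dendritic cell genes 3 were higher and 0 lower (288 to 394 against 166), of 9 endothelial genes 1 was higher and 3 lower (8.41 to 9.44 against 19.2), and of 7 B cell genes 1 was higher and 4 lower (3.45 to 4.35 against 52.3). Several of the 9 feedback genes are also expressed outside T cells, and the part of other cells in their values was not tested. In bulk RNA, fewer cells with a transcript and less of it per cell cannot be told apart.

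**Figure D5:**
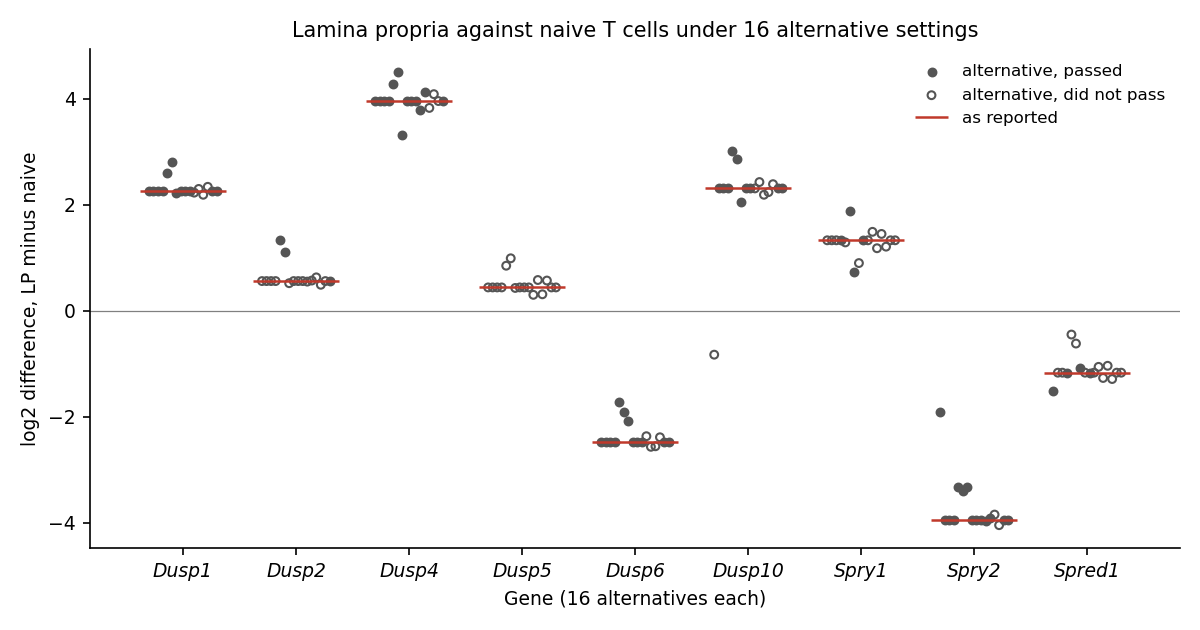
Difference of LP minus naive for each of the 9 genes on the log2 scale as reported (lines) and under 16 alternatives (points, filled where the gene passed). Dusp10 is the only one of the 9 whose sign turns, to -0.83 with the mean of its probe sets.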

How the data were processed

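The 9 genes and the 15 gene lists set beside them were chosen with earlier results of these data known. The deposited intensity values of 45101 probe sets are linear and scaled by the authors to a median of 1 on each array. The methods name GeneSpring and the submitters' notes name RMA, and neither background correction nor filters are given in these sources. No columns of other samples were present. Probe sets with 1 gene symbol were kept (34958, of which 13 controls were dropped), and 932 with several symbols and 9211 with none were not used. By Entrez ID, 34741 matched RefSeq.

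Signals were log2 transformed, the 2 signals of 0 being set to 0.001. A model over the 3 groups was fitted to all 18193 genes in R 4.3.3 with limma 3.58.1, using lmFit and eBayes, and two-sided p-values were adjusted by Benjamini-Hochberg across all genes at a threshold of 0.05. It had 2 residual and 1.678 prior degrees of freedom. The spread of the LP groups stood for that of the lone naive array. Named genes were the 9 members and Cxcr6. In each list the 2 to 4 passing genes with the largest LP difference were named, or the 2 largest where none passed. Not all are printed. Cd4, Car1, Thy1, Tbx21, Egr1, Zfp36, Klf2, Satb1, Ccr7, S1pr1, Hspa8 and Hspa5 were added after their values were seen. Sequences come from RefSeq, and promoters were searched over 250 bases. Simulated data with known differences were used to test the fit. The number of arrays limits the precision. The alternatives were the mean of probe sets, no _s_at or _x_at probe sets, each probe set on its own, a 40th percentile filter, quantile or array median scaling, the signal plus 1, a floor at 1, a variance trend, blocking by replicate number, omission of single LP arrays, and the methods' t-test.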

Additional observations from a re-analysis of the deposited data

How the results depend on the processing

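With 16 alternatives for each gene, the LP minus naive results of the 9 genes stayed on the same side of the test in 114 cases, fell below the threshold in 18, rose past it in 11 and turned once. The turn was Dusp10 with the mean of its probe sets, at -0.83 against naive cells, -1.09 in CXCR6 Hi cells and -0.57 in CXCR6 Lo cells. None of the 9 passed between the subsets in any of 144 results. By the methods' t-test, 1 of all genes passed there after Benjamini-Hochberg and 7.05% unadjusted. The count of genes past the test was 5 of 9 for LP against naive cells and 0 to 2 with 1 array left out. For CXCR6 Hi against naive cells it was 5, falling to 3 with a floor at a signal of 1, 0 with 1 array left out, 0 with the replicate block, and 0 by the methods' t-test after Benjamini-Hochberg or 3 unadjusted. For CXCR6 Lo it was 5 and fell to 0 with 1 array left out, 0 with the replicate block, and 0 by the methods' t-test in either form. With the block or with any 1 array left out, 0 of all 18193 genes passed in either of these comparisons. By the t-test after Benjamini-Hochberg, 34 of all genes passed for CXCR6 Hi and 16 for CXCR6 Lo. Unadjusted, 17.5% of all genes passed it for CXCR6 Hi and 20.1% for CXCR6 Lo. With the floor at a signal of 1, 21.1% of all genes passed for CXCR6 Hi. The labels do not say that replicate numbers pair the arrays, and the deviations of same-numbered LP arrays correlated at 0.0193 across genes, which are not independent replicates. Treated as a block, the numbers left 4 of 9 for LP against naive cells (Dusp10 lost), with 19.3% of all genes, and 0 between the subsets. Dusp2 passed as higher with quantile normalization (1.33), array medians of the genes (1.11) or the methods' t-test unadjusted (0.56). Spry1 passed with the 40th percentile filter, array medians, the signal plus 1 and a variance trend. Spred1 passed as lower when its probe sets were averaged, with the filter, the signal plus 1 and the trend. The median of all genes, -0.14, moved to 0.41 with array medians of the genes and to -0.42 with the filter. For genes with signals under 1, the median absolute log2 difference between replicates was 0.79 in CXCR6 Hi and 0.73 in CXCR6 Lo cells, against 0.24 and 0.19 at signals of 4 or more.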
